A study of Mus musculus with 18 samples.

Results

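Interferon-stimulated genes are the genes that cells switch on when type I or type II interferon binds its receptor. A panel of 38 such genes was followed through 18 arrays of mouse macrophages, and 36 of the 38 had a probe set of their own. The panel was set by symbol, with earlier results of these data known. These 36 genes carried 58 of the 45101 probe sets on each array, and they are 36 of the 18194 genes with a probe set of their own. Isg15 was measured only by a probe set that it shares with another gene, and Ifi44 was not analysed here, so neither has a value. Each gene is read from its brightest probe set. All 36 passed the filter on low signal, and 35 of them were at or above the median signal of the array on all 18 arrays. The exception was Mx2, which stayed between 15.3 and 153 signal units.

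The macrophages were grown from bone marrow of IL-10-/- mice for 7 days in medium with CSF-1, supplied as medium conditioned by L cells. They were then treated, in medium without CSF-1, with LPS at 100 ng/ml alone or with LPS at 100 ng/ml plus IL-10 at 10 ng/ml, for 10, 20 or 30 min. Every group lacks endogenous IL-10, and untreated cells were not analysed here. Each of the 6 groups has 3 arrays, 1 from each of 3 complete experiments that were run one after the other on mice of the same age and sex; they are called experiments 1, 2 and 3. The values are array signals on a linear scale, scaled to the same trimmed mean of 500 on every array. The macrophage markers Csf1r, Cd68, Cd14, Lyz2 and Adgre1 were bright on all 18 arrays (lowest signal 9900.1, for Adgre1). In bulk RNA, fewer cells of a type and less RNA per cell cannot be told apart.

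LPS is sensed by TLR4. One arm of its signalling, through the adaptor TRIF, leads to interferon-beta, which leaves the cell, binds the receptor made of Ifnar1 and Ifnar2, and activates a transcription factor complex that contains Stat2 and Irf9. That complex binds the interferon-stimulated response element, in which the letters GAAA recur at a fixed spacing. Because a protein has to be made and secreted first, induction of these genes by LPS is known as a late, secondary response. Macrophages also transcribe many of them without stimulation, at a level that constitutive interferon sustains. IL-10 signals through STAT3 and is best known for restraining inflammatory genes.

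The element can be read in the promoters of members whose levels are described below. RefSeq windows on GRCm38.p6, from 250 bases before to 50 bases after the start of the gene, were at hand for 29 of the 38 members. The core of the element, GAAA followed by any 2 bases and GAAA again, on either strand, was in the window of 14 of the 29 (48.3%), beside 3.99% of all genes with a window and 18 of 41 (43.9%) of the other interferon-induced genes listed. The letters TTCNNNGAA, the core to which activated STAT dimers bind, were in 9 of the 29, beside 9.55% of all genes. Among the other interferon-induced genes listed they were in 5 of 41 (12.2%), near the share of all genes. These are matches of letters, not sites shown to be bound. The 150 bases before the start are shown for 6 members, 3 that were highest in experiment 3 (Ifit1, Gbp2, Rsad2) and 3 that were highest in experiment 2 (Oas3, Bst2, Oas1a), on the strand of the gene with that core, or its reverse complement, in capitals. They lie at chr19:34640739-34640888 (plus strand) for Ifit1, chr3:142620513-142620662 (plus) for Gbp2, chr12:26456453-26456602 (minus) for Rsad2, chr5:120777660-120777809 (minus) for Oas3, chr8:71537473-71537622 (minus) for Bst2 and chr5:120907526-120907675 (minus) for Oas1a.
Ifit1: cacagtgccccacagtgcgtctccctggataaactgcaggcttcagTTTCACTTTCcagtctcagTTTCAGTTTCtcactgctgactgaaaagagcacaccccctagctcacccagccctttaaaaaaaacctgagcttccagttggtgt
Gbp2: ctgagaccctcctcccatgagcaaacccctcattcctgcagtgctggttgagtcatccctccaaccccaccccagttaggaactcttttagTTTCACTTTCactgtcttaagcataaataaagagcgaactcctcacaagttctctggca
Rsad2: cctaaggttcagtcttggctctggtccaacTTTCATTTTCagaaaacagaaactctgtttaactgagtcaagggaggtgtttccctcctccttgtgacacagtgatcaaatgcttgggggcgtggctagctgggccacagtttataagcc
Oas3: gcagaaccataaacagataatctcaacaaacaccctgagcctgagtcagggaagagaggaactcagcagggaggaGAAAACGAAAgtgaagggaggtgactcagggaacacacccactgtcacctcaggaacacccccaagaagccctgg
Bst2: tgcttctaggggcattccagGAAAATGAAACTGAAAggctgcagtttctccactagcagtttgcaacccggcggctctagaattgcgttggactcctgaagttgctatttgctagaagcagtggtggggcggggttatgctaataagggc
Oas1a: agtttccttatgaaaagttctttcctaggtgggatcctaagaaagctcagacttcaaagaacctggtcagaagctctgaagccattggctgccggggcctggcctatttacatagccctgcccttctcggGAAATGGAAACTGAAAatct
Ifit1, Bst2 and Oas1a each hold a pair of matches, which overlap in Bst2 and Oas1a, and the other members shown hold 1. Both kinds of members carry the element: it was in 3 of the 8 genes with a window among those highest in experiment 2, and in 5 of 8 among those highest in experiment 3.

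The LPS 20 min arrays of experiments 2 and 3 stood apart from the others, with a lower quartile of signal of 38.7 and 34.1 against 21.9 to 31.1 on the other 16 arrays, so results are also given without them where they change. The next highest, 31.1, was the LPS plus IL-10 20 min array of experiment 3. It was kept in those results, so they do not remove what it shares with the LPS 20 min array of experiment 3. The ratio of 3' to 5' Gapdh signal, a sign of RNA quality, had medians of 0.829, 0.843 and 0.814 in experiments 1, 2 and 3.

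The first question was whether LPS time or IL-10 moved these genes within 30 min. No member passed the test in any of the 12 comparisons of treatment and time, by limma with Benjamini-Hochberg adjustment over 27062 probe sets, whether or not the experiment was a term in the fit. The standard errors and adjusted p-values of single members below are from the fit with that term, which gives the smaller errors. At an unadjusted p under 0.05, without that term, 1 of 36 members passed in LPS plus IL-10 at 20 against 10 min, 1 in the average 20 against 10 min and 0 in each of the other 10 comparisons, and with the term 0 to 5 did. Without the term, that 1 member is 2.78%, beside 1.13% and 2.25% of all genes, and 0.634% to 2.77% of genes passed in the others. With the term, 258 to 1083 of 12468 genes passed. At the adjusted threshold few genes of any kind did. For IL-10 at 10 min 0 of 36 members were called where 0% of all 12468 genes were, with or without the term. For IL-10 at 20 min, at 30 min and averaged over the times, 0 members were called where 0.016%, 0.016% and 0.016% of all genes were without the term and 0.016%, 0.0401% and 0.0241% with it. For 20 and 30 against 10 min under LPS alone, 0 members were called where 0% and 0.0401% of genes were without the term and 0.0241% and 0.168% with it. Under LPS plus IL-10 these shares of genes were 0.016% and 0.0481% without it and 0.0481% and 0.257% with it, and averaged over treatments 0.0321% and 0.0722% without it and 0.0882% and 0.417% with it, with 0 members called each time. When the effect of IL-10 at 10 min was set against that at 20 and at 30 min, 0 members were called where 0% and 0.00802% of genes were without the term and 0.00802% and 0.016% with it.

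The intervals say how large a change could have been missed. With the experiment as a term, the 95% interval of the log2 difference lay within 1 log2 unit of no change for 35 of 36 members at 30 against 10 min under LPS alone, and for 35 of 36 for IL-10 at 30 min. The interval reached a median of 0.29 log2 units to either side of the estimate. Without the term it reached a median of 0.59, and lay within 1 log2 unit for 27 and 30 of 36 members in these comparisons. The median member differed by 0.01, 0.08 and 0.04 between LPS plus IL-10 and LPS alone at 10, 20 and 30 min, beside 0.01, 0.00 and 0.00 for all genes. Under LPS alone the median member was -0.12 at 20 min and -0.05 at 30 min against 10 min, beside 0.01 and -0.02 for all genes.

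Ifit1, which binds viral RNA that lacks host cap methylation, shows what the arrays hold. Under LPS alone its signal in experiments 1, 2 and 3 was 1332.3, 1820.3 and 3390.5 at 10 min, 1564.5, 1863.4 and 3954.3 at 20 min, and 1264, 1792.8 and 2634.1 at 30 min. Under LPS plus IL-10 it was 1490.2, 2154 and 3882.1 at 10 min, 1258.7, 1953.4 and 4512.4 at 20 min, and 1270.6, 1739.8 and 3039.5 at 30 min. In all 6 groups experiment 3 was highest and experiment 1 lowest, and the groups overlap throughout. The log2 difference of Ifit1 at 30 against 10 min was -0.15 ± 0.12 (SE, n = 3) under LPS alone and -0.29 ± 0.12 under LPS plus IL-10 (adjusted p = 0.753, limma with the experiment term).

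**Figure D1:**
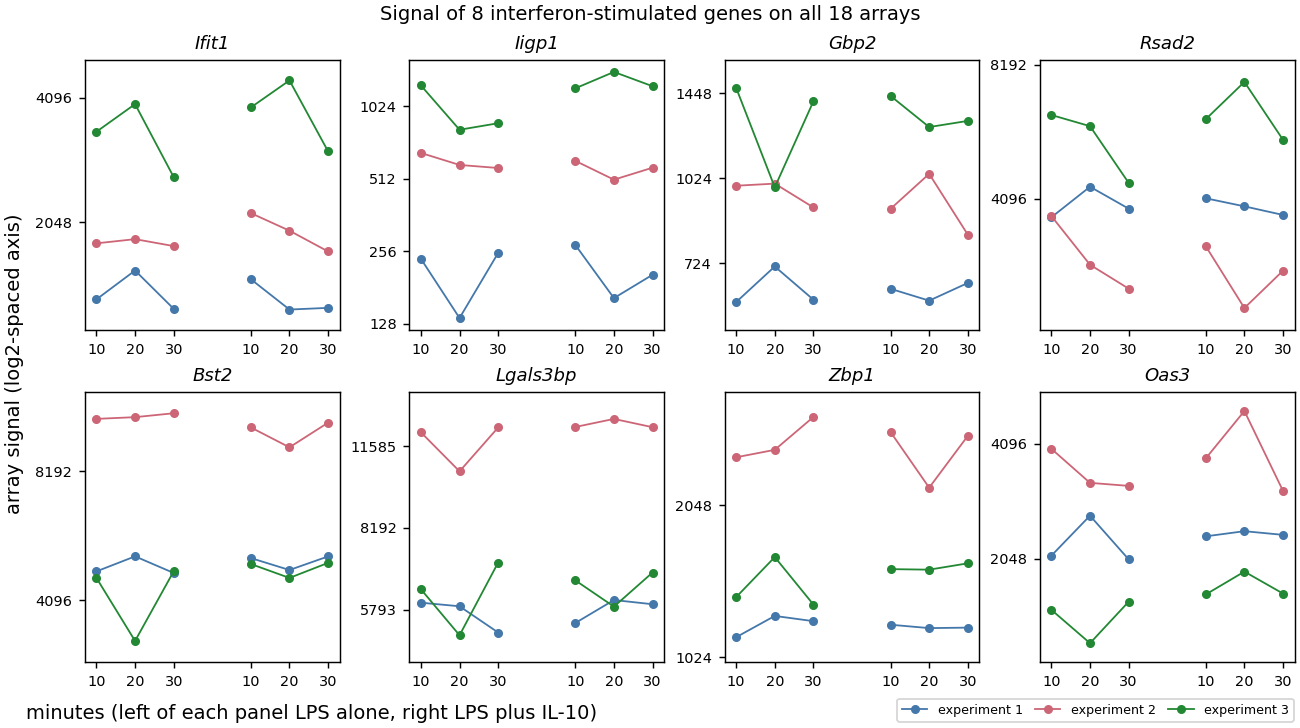
Signal of 8 interferon-stimulated genes (y axis, log2-spaced) on each of the 18 arrays, by minutes of treatment (x axis), LPS alone on the left and LPS plus IL-10 on the right of each panel. Lines join the arrays of 1 experiment. The lines are separated by experiment more than they move with time or IL-10: Iigp1 lies at 135.3 to 272 in experiment 1 and at 818.3 to 1422 in experiment 3.

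The largest single differences belonged to Mx2, a dynamin-like antiviral GTPase and the only dim member. Under LPS plus IL-10 its signal was 57.5, 16.2 and 15.3 at 10 min and 58.2, 153 and 145.1 at 20 min in experiments 1, 2 and 3. It was higher at 20 min in all 3, but in experiment 1 hardly so, and the log2 difference of 1.59 ± 0.53 (SE, n = 3) did not pass (adjusted p = 0.826 with the experiment term). Mx2 also had the largest differences for 20 against 10 min averaged over treatments (1.06 ± 0.38, adjusted p = 0.517), for IL-10 at 20 min (0.85 ± 0.53, adjusted p = 0.703) and for IL-10 averaged over times (0.26 ± 0.31). The same held for 20 against 10 min under LPS alone (0.53) and for the shift of the IL-10 difference from 10 to 20 min (1.06). Signals this low cannot be told from background here.

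Ifi204, a nuclear DNA sensor of the HIN family, and Cmpk2, a mitochondrial nucleotide kinase that lies beside Rsad2, came nearest to the threshold. Ifi204 was 845.8, 1407.3 and 962.8 under LPS alone at 10 min and 676.6, 888.2 and 801 with IL-10, lower with IL-10 in all 3 experiments, by a log2 difference of -0.41 ± 0.12. At 20 min the order was the other way, 623.9, 959.5 and 716.7 under LPS alone against 738.9, 1277.7 and 806.1 with IL-10. Between 10 and 20 min the IL-10 difference of Ifi204 shifted by 0.68 ± 0.17, which had the smallest adjusted p of any member in these comparisons, 0.338 with the experiment term. For Cmpk2 the same shift was 0.76 ± 0.20 (adjusted p = 0.375), from -0.40 ± 0.14 for IL-10 at 10 min.

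In the remaining comparisons the largest member differences did not pass either, and neither did the largest after Mx2 at 20 min. After Mx2, under LPS alone at 20 min Iigp1, a GTPase that attacks pathogen vacuoles, was at -0.50 ± 0.19 and Ifi204 at -0.46 ± 0.12 (adjusted p = 0.471 and 0.361). At 30 min under LPS alone Cmpk2 was at -0.34 ± 0.14 and Rsad2, or viperin, which makes a chain-terminating nucleotide, at -0.33 ± 0.15. IL-10 at 20 min came with -0.38 ± 0.17 for Ifitm3, a membrane protein that blocks viral fusion, and 0.37 ± 0.14 for Oas3. By experiment these were -0.17, -0.16 and -0.79 for Ifitm3 and -0.13, 0.62 and 0.62 for Oas3. Without the LPS 20 min arrays that stood apart they were -0.27 and 0.00. At 30 min its largest member differences were -0.27 ± 0.20 for Mx1, 0.17 ± 0.16 for Igtp and 0.17 ± 0.10 for Samhd1. Averaged over treatments at 30 min, Ifit3 was at -0.24 ± 0.12, Rsad2 at -0.24 ± 0.10 and Ifit1 at -0.22 ± 0.09 (adjusted p = 0.738, 0.639 and 0.546).

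**Figure D2:**
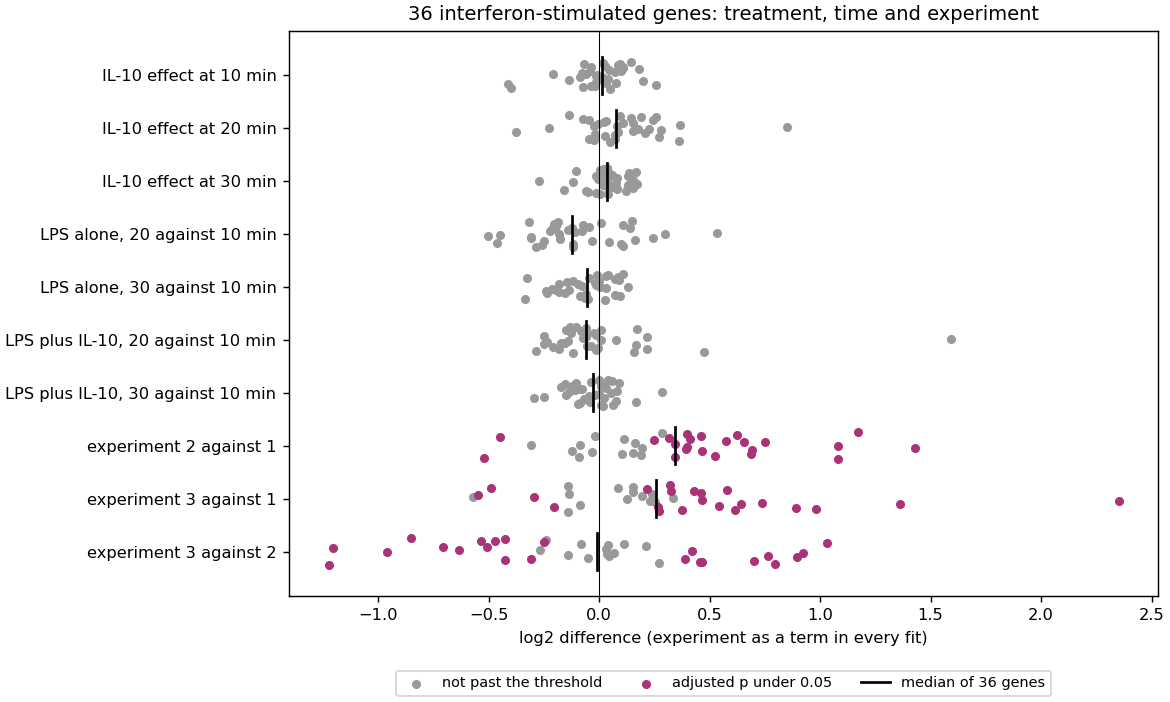
Log2 differences (x axis) of the 36 members, 1 point a gene, in 7 comparisons of treatment or time and 3 comparisons of experiments (y axis), all from fits with the experiment as a term. Coloured points have an adjusted p under 0.05 and the bar is the median of the 36: no point is coloured in the 7 upper rows, and 23, 22 and 23 are in the 3 lower ones.

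The second question was how the level of the same genes differed between the 3 experiments. The 6 arrays of an experiment belong to 1 run of the study, so these tests compare 3 runs and say nothing about a treatment, and experiment, mice and any array batch cannot be told apart. Members were higher in experiments 2 and 3 than in 1 on average, but experiments 2 and 3 differed from each other by which members were high. In experiment 2 against 1, 21 of 36 members were higher and 2 lower (63.9% called), where 38.9% of all 12468 genes were called (24.0% higher, 14.9% lower). In experiment 3 against 1, 18 were higher and 4 lower (61.1%), where 47.3% of all genes were called (26.9% higher, 20.4% lower). In experiment 3 against 2, 10 were higher and 13 lower (63.9%), where 28.7% of all genes were called (13.0% higher, 15.7% lower).

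Bright genes pass more easily, and the members are bright. Among the 8898 genes at or above the array median on all 18 arrays, the shares called were 47.1%, 56.4% and 36.9%, so in experiment 3 against 1 the members' 61.1% is near that of other bright genes. Some difference among the 3 experiments was called for 31 of 36 members (86.1%), where it was called for 56.2% of all genes and 67.9% of these bright genes. Mx2, Oas2, Igtp, Ifih1 and Parp9 were the 5 without a call. The median size of the member differences was 0.40, 0.32 and 0.43 log2 units in experiment 2 against 1, 3 against 1 and 3 against 2, beside 0.29, 0.34 and 0.23 for all genes. The signed medians were 0.34, 0.26 and -0.01, beside 0.12, 0.10 and -0.01 for all genes.

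The mean log2 level over the 36 members hides most of this. It was 10.87 ± 0.038 in experiment 1, 11.22 ± 0.044 in experiment 2 and 11.18 ± 0.12 in experiment 3 (SD, n = 6 arrays). Experiments 2 and 3 were above experiment 1 in all 6 matched conditions, by 0.35 and 0.31 on average, while experiment 3 was above experiment 2 in 2 of 6, by -0.05 on average. The lowest mean in experiment 3, 10.96, was that of the LPS 20 min array that stood apart. The 6 group means ran from 11.02 to 11.12.

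**Figure D3:**
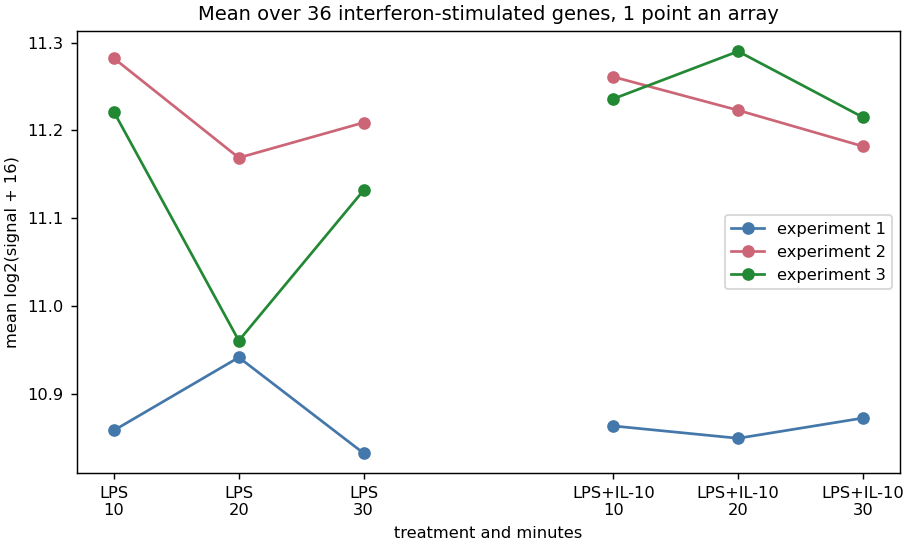
Mean of log2(signal + 16) over the 36 members (y axis) on each array, by treatment and minutes (x axis), with lines joining the arrays of 1 experiment. Experiment 1 lies lowest in every condition, between 10.83 and 10.94, and the LPS 20 min array of experiment 3 drops to 10.96.

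The members split into groups by their order across the experiments. A total of 10 members were called higher in experiment 2 than in both others (27.8%, where 5.83% of all genes and 7.64% of the bright genes were), and 9 were called higher in experiment 3 than in both others (where 8.57% and 11.0% were). None was called highest in experiment 1, where 10.5% of all genes and 13.8% of the bright genes were. In the other direction, 12 were called lowest in experiment 1 (33.3%, where 15.9% of all genes and 18.5% of the bright genes were). Another 2 were lowest in experiment 2 (5.56% against 4.09% and 5.33%) and 4 lowest in experiment 3 (11.1% against 9.37% and 12.1%), both near the shares of the bright genes. The groups were read off these arrays and are a description of them, and the comparisons behind each share the arrays of 1 experiment. Some members change group without the arrays that stood apart, as given below.

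The 9 members highest in experiment 3 included 4 of the 6 panel genes for immunity-related and guanylate-binding GTPases, proteins that act on intracellular pathogens: Iigp1, Gbp2, Gbp3 and Ifi47. The others did not share this order, since Igtp had no call and Irgm1 was not called between experiments 3 and 2 (0.07 ± 0.10). Iigp1 had a lowest, median and highest signal of 135.3, 221.4 and 272 in experiment 1, of 507.8, 576.9 and 655.6 in experiment 2, and of 818.3, 1228.3 and 1422 in experiment 3. The 3 experiments did not overlap, and experiment 3 exceeded experiment 1 by 2.35 ± 0.14 log2 units (SE, n = 6 arrays; 5.11-fold; adjusted p = 3.43e-10, limma). This was the largest difference of any member, and it was 2.17 on the LPS arrays alone and 2.54 on the LPS plus IL-10 arrays alone. Gbp2, a guanylate-binding protein, was 618.5, 638.7 and 715 in experiment 1, 814.2, 951.5 and 1042.8 in experiment 2, and 987.1, 1347.2 and 1480 in experiment 3. Experiments 2 and 3 of Gbp2 overlapped only through the LPS 20 min array of experiment 3, at 987.1, and experiment 3 exceeded experiment 1 by 0.98 ± 0.10. Its relative Gbp3 was 0.89 ± 0.20 higher in experiment 3 than in 1 (adjusted p = 0.00137) and 0.70 ± 0.20 higher than in 2 (adjusted p = 0.0147), and the GTPase Ifi47 was 0.54 ± 0.11 and 0.39 ± 0.11 higher.

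The other members highest in experiment 3 act on viral RNA and nucleotides. Ifit1 was 1258.7, 1301.4 and 1564.5 in experiment 1, 1739.8, 1841.8 and 2154 in experiment 2, and 2634.1, 3636.3 and 4512.4 in experiment 3. The experiments did not overlap, and experiment 3 exceeded experiment 1 by 1.36 ± 0.09 (2.57-fold; adjusted p = 9.33e-10, limma) and experiment 2 by 0.89 ± 0.09. Its relative Ifit2 was not called between experiments 2 and 1 (-0.12 ± 0.10), and in experiment 3 it was 0.64 ± 0.10 above experiment 1 and 0.76 ± 0.10 above experiment 2. Eif2ak2, the kinase PKR that halts translation on double-stranded RNA, was 0.37 ± 0.13 and 0.47 ± 0.13 higher in experiment 3.

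Rsad2 and Cmpk2 were the only members called lower in experiment 2 than in 1, a call that both other probe sets of Rsad2 did not share (-0.12 and -0.24), and they are neighbours in the genome that are known to be induced together. Rsad2 was 3717.2, 3910.6 and 4354.8 in experiment 1, 2321.7, 2861.7 and 3740.1 in experiment 2, and 4445.1, 6072 and 7498.6 in experiment 3. Experiment 3 lay above all arrays of both others, by 1.03 ± 0.10 over experiment 2 (2.04-fold; adjusted p = 6.53e-07, limma), while experiment 2 was -0.45 ± 0.10 against experiment 1. For Cmpk2 the differences were 0.79 ± 0.10 for experiment 3 against 2 and -0.52 ± 0.10 for experiment 2 against 1.

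**Figure D4:**
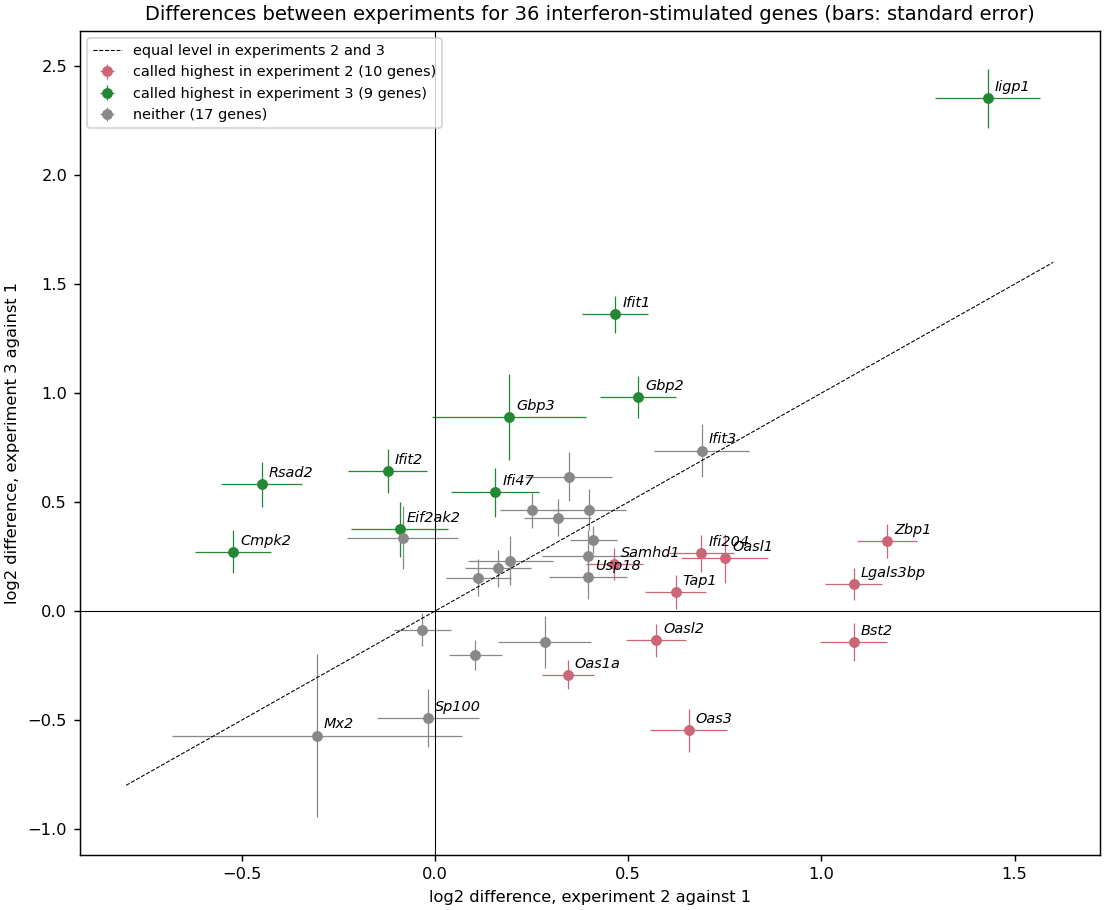
Log2 difference of each of the 36 members in experiment 2 against 1 (x axis) and in experiment 3 against 1 (y axis), with standard errors as bars; the dashed line marks equal levels in experiments 2 and 3, and both axes share the level of experiment 1. Iigp1 (1.43, 2.35) and Ifit1 (0.47, 1.36) lie above the line, and Zbp1 (1.17, 0.32), Bst2 (1.08, -0.14) and Oas3 (0.66, -0.55) below it.

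The 10 members highest in experiment 2 included 4 of the 5 panel genes of the 2'-5'-oligoadenylate synthetase family (Oas1a, Oas3, Oasl1 and Oasl2, not Oas2). On double-stranded RNA its enzymes make the signal that activates RNase L, and the Oasl proteins are their relatives. Oas3 was 2043.9, 2357.9 and 2658.7 in experiment 1, 3086.9, 3497.9 and 4995.6 in experiment 2, and 1232.9, 1618.3 and 1897.9 in experiment 3. The experiments did not overlap, and experiment 3 was lowest, by -1.20 ± 0.10 against experiment 2 (adjusted p = 4.96e-08, limma) and by -0.55 ± 0.10 against experiment 1. Oas1a kept the same order, with medians of 9480, 12293 and 7612.7 and a difference of -0.64 ± 0.07 between experiments 3 and 2. Oasl1 and Oasl2 were 0.75 ± 0.11 and 0.57 ± 0.08 higher in experiment 2 than in 1 and were not called between experiments 3 and 1 (0.24 ± 0.11 and -0.13 ± 0.08). Oas2 had no call, with medians of 1320.8, 1477 and 1565. Oas1b, which is outside the panel, had none either, at -0.27 ± 0.25 for experiment 2 against 1 and 0.39 ± 0.25 for 3 against 2.

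Bst2, or tetherin, which holds budding virus at the cell surface, was also highest in experiment 2. Its signal was 4743.2, 4979.2 and 5186.8 in experiment 1, 9326.8, 10759 and 11204 in experiment 2, and 3290, 4701.4 and 5007.9 in experiment 3. Experiment 2 was clear of both others, by 1.08 ± 0.09 over experiment 1 (2.12-fold; adjusted p = 3.06e-08, limma), and experiment 3 was at -1.22 ± 0.09 against experiment 2. Lgals3bp, a secreted glycoprotein that binds galectin-3, was 5254.4, 5898.4 and 6030.6 in experiment 1, 10408, 12543 and 13000 in experiment 2, and 5193.1, 6433 and 7068.7 in experiment 3, a difference of 1.08 ± 0.07 between experiments 2 and 1. Experiments 1 and 3 of Bst2 and of Lgals3bp overlapped and were not called apart.

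Zbp1, a sensor of Z-form nucleic acid that can start necroptosis, was 1121.4, 1179.3 and 1235.8 in experiment 1, 2220.3, 2725.9 and 3066.4 in experiment 2, and 1301.9, 1528.5 and 1617 in experiment 3. The experiments did not overlap, and experiment 2 exceeded experiment 1 by 1.17 ± 0.08 (2.25-fold; adjusted p = 3.02e-09, limma). Ifi204 was 0.69 ± 0.08 higher in experiment 2 than in 1, and Samhd1, which depletes the nucleotides that reverse transcription needs, 0.46 ± 0.07. Tap1, which pumps peptides to MHC class I, was 0.62 ± 0.08 higher in experiment 2 than in 1 and was not called between 3 and 1 (0.09 ± 0.08).

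Other members were higher in both later experiments than in experiment 1. Ifit3 had medians of 1610.6, 2600.4 and 2883.7, and differed by 0.69 ± 0.12 and 0.74 ± 0.12 in experiments 2 and 3 against 1, with no call between 3 and 2 (0.05 ± 0.12). The GTPase Irgm1 (0.40 and 0.47), the immunoproteasome subunits Psmb8 (0.41 and 0.33) and Psmb9 (0.32 and 0.43), the ADP-ribosyltransferase Parp14 (0.25 and 0.46) and the ubiquitin ligase Dtx3l (0.35 and 0.62) also passed against experiment 1 in both. Usp18, the protease that removes Isg15 and damps the interferon receptor, and Ifitm3 passed only in experiment 2 against 1, each at 0.40, and for both the comparison of experiment 3 with 2 did not pass (-0.24 and -0.14).

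A few members were lower in experiment 3. Sp100, a protein of nuclear bodies, was at -0.49 ± 0.13 against experiment 1 and -0.47 ± 0.13 against experiment 2, and its lowest signal, 728.1, was far under its median there of 1372.8. That signal was on the LPS 20 min array that stood apart, and without both such arrays Sp100 was at -0.33 and -0.31 (adjusted p = 0.0108 and 0.0311, limma). The LPS plus IL-10 20 min array of experiment 3, with Sp100 at 1088.4, was kept in that fit. Ifi35 was at -0.20 ± 0.07 and -0.31 ± 0.07. Xaf1, a promoter of apoptosis, was called lower in experiment 3 than in 2 (-0.43 ± 0.12), and Mx1 higher (0.42 ± 0.14, adjusted p = 0.042). Among the members with no call, the RNA sensor Ifih1 had medians of 2252.6, 2248.1 and 2195.4 and Parp9, the partner of Dtx3l, 2788.8, 2939.9 and 3025.7.

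The sign of the difference on the LPS arrays matched that on the LPS plus IL-10 arrays for 31, 35 and 31 of 36 members in experiment 2 against 1, 3 against 1 and 3 against 2. Rsad2 differed by 0.86 and 1.20 between experiments 3 and 2 on the LPS and on the LPS plus IL-10 arrays, Oas3 by -1.26 and -1.15, and Bst2 by 1.17 and 1.00 between experiments 2 and 1. No member was called for a difference between experiments that itself differed by treatment, nor was any of the 27062 probe sets (0%), and 1 member had an unadjusted p under 0.05. By time, 1 of 36 members, Dtx3l, was called for such a difference (adjusted p = 0.0263, limma), where 3.75% of all genes were. The call of Dtx3l was lost without the LPS 20 min arrays that stood apart (adjusted p = 0.0726) and without the intensity trend of the fit (0.253).

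Without the arrays that stood apart, 24, 26 and 23 members were called in experiment 2 against 1, 3 against 1 and 3 against 2. These are 66.7%, 72.2% and 63.9% of members, beside 34.8%, 41.9% and 22.2% of all probe sets. All probe sets include dim ones, and the shares of the bright genes are not given for this setting. Single calls changed. In experiment 2 against 1, Xaf1 was gained (0.38, adjusted p = 0.00104, limma). In experiment 3 against 1, Oas2 (0.25), Oasl1 (0.39), Usp18 (0.29), Igtp (0.33), Parp9 (0.23) and Lgals3bp (0.18) were gained, and Cmpk2 (0.23, adjusted p = 0.0949) and Eif2ak2 (0.34, adjusted p = 0.0642) were lost. In experiment 3 against 2, Ifitm3 (-0.29) and Parp14 (0.29) were gained, and Mx1 (0.37, adjusted p = 0.085) and Samhd1 (-0.22, adjusted p = 0.0506) were lost. With these changes Cmpk2 and Eif2ak2 left the group highest in experiment 3, and Parp14 joined it. Samhd1 left the group highest in experiment 2, and Xaf1 and Ifitm3 joined it. Oasl1, Usp18 and Lgals3bp joined those lowest in experiment 1.

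For 14 members several probe sets were present. Of 31 calls between experiments for which another probe set of the gene was tested, 16 were shared in sign and call by all its other probe sets and 7 by none. The second probe set of Iigp1 gave 2.11 for experiment 3 against 1 and that of Gbp2 0.97, and the second of Zbp1 gave 1.17 for experiment 2 against 1. Disagreement was found for Rsad2, where 1 of its other probe sets gave 0.73 for experiment 3 against 1 and the third 0.02. It was found for Eif2ak2, whose 3 probe sets gave -0.09, 0.42 and -0.95 for experiment 2 against 1, for Cmpk2, whose dimmer probe set gave -0.34 for experiment 3 against 1, and for Samhd1, where 1 of 4 other probe sets was higher in experiment 3 than in 2 by 0.66. For Cmpk2 the dimmer probe set was not called between experiments 3 and 2 (0.24, adjusted p = 0.276, limma), and neither was that of Gbp2 (0.40, adjusted p = 0.0686). In experiment 2 against 1 the second probe sets of Dtx3l (0.06) and Parp14 (-0.08) were not called, and that of Sp100 was higher (0.48, adjusted p = 0.0023). In experiment 3 against 1 that of Sp100 was at -0.27 (adjusted p = 0.0581).

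The genes upstream of these members were read from a list of 28 interferon ligands, receptors and signalling proteins, of which 22 were tested. In experiment 2 against 1, 11 of the 22 were higher and 1 lower; in experiment 3 against 1, 10 were higher and 5 lower; in experiment 3 against 2, 4 were higher and 7 lower. These are 54.5%, 68.2% and, for the last, 11 of 22 called, beside 47.1%, 56.4% and 36.9% of the bright genes. Without the arrays that stood apart, Ifnar2 (-0.18), Irf1 (-0.31) and Stat2 (-0.37) lost their call in experiment 3 against 2 (adjusted p = 0.153, 0.0592 and 0.0565, limma). Ifngr1 gained a call there (0.38, adjusted p = 0.0228, limma). For experiment 3 against 1, Ifngr2 lost its call (-0.54, adjusted p = 0.0667) and Sting1 gained one (0.58, adjusted p = 0.0152, limma). The interferon-beta gene Ifnb1 was dim, at or above the array median on 4 of 18 arrays, with medians of 65.85, 93.85 and 60.1 and 1 array, LPS at 20 min in experiment 2, at 371.3. Its call in experiment 2 against 1 (0.81 ± 0.28, adjusted p = 0.0337) includes that array, which is 1 of the 2 that stood apart, and was lost without them (0.57, adjusted p = 0.125, limma). The receptor chain Ifnar1 was not called in any comparison of experiments, and Ifnar2 was 0.58 ± 0.09 higher in experiment 2 than in 1.

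Irf7, the factor that amplifies type I interferon and is itself an interferon-stimulated gene, was, like Bst2, highest in experiment 2. Its medians were 2418.3, 10639 and 2689.8, its range in experiment 2 (10332 to 12922) was far from both others, and the difference was 2.18 ± 0.10 for experiment 2 against 1 (4.53-fold; adjusted p = 1.95e-11, limma). Experiments 3 and 1 were not called apart for Irf7 (0.09 ± 0.10), but were without the arrays that stood apart (0.21, adjusted p = 0.0476, limma). Ikbke, the kinase that phosphorylates Irf3 and Irf7, was, like Ifit1, highest in experiment 3, with medians of 1553.2, 1863.3 and 6129.8 and a difference of 2.00 ± 0.09 for experiment 3 against 1. Irf9 was lower in experiment 3 than in 2 (-0.38 ± 0.08), and Stat2 was lower in experiment 3 than in 1 (-0.63 ± 0.12).

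Irf1, a transcription factor induced by interferon and STAT signalling, and Stat2 were called in comparisons of treatment or time, with the experiment term only. At 30 min its signal in experiments 1, 2 and 3 was 2121.6, 2215.1 and 1387.9 under LPS alone and 4696.7, 3006 and 3983.5 under LPS plus IL-10, without overlap. The difference with IL-10 at 30 min was 1.03 ± 0.15 (adjusted p = 0.00802 with the experiment term, limma; 1.0 without it), and 30 against 10 min under LPS plus IL-10 was 1.06 ± 0.15 (adjusted p = 0.00223; 0.729 without the term). With the experiment term the call of Irf1 for IL-10 at 30 min was lost without experiment 1 (0.97, adjusted p = 1.0) and without experiment 3 (0.79, adjusted p = 0.154), and kept without experiment 2 (1.33, adjusted p = 0.00662). Stat2 was at -0.71 ± 0.12 for 20 against 10 min averaged over treatments (adjusted p = 0.0318 with the term, 1.0 without), and this call was lost on leaving out any 1 experiment (adjusted p = 0.167 to 0.574) or the arrays that stood apart (0.349).

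**Figure D5:**
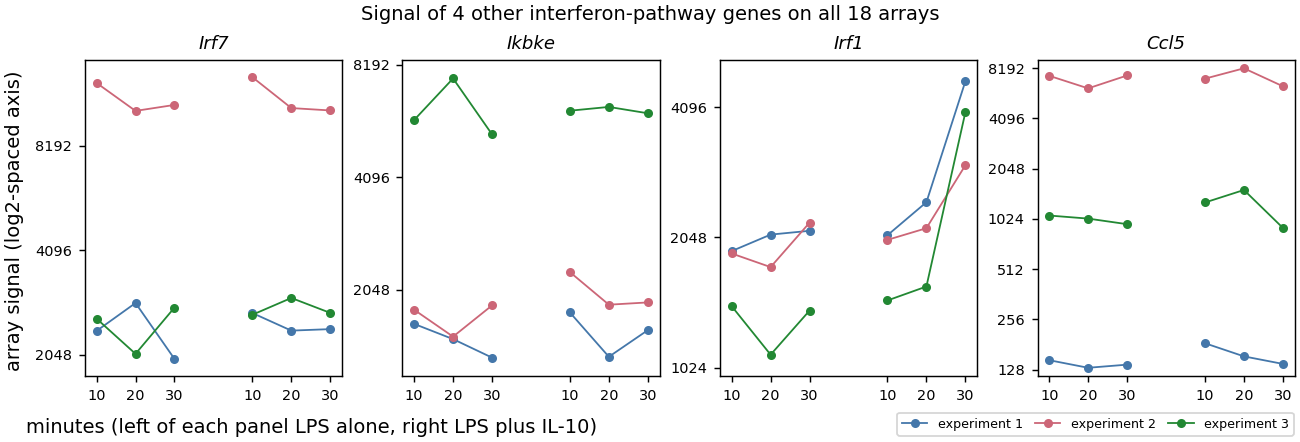
Signal (y axis, log2-spaced) of Irf7, Ikbke, Irf1 and Ccl5 on the 18 arrays by minutes of treatment (x axis), LPS alone on the left and LPS plus IL-10 on the right of each panel, with lines joining the arrays of 1 experiment. Irf7 is high in experiment 2, Ikbke in experiment 3, and Irf1 rises to 3006 to 4696.7 at 30 min with IL-10.

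A second list held 54 other interferon-induced genes, of which 44 were tested. Of these, 24 were higher and 5 lower in experiment 2 against 1, 22 higher and 5 lower in 3 against 1, and 7 higher and 9 lower in 3 against 2 (65.9%, 61.4% and 36.4% called, beside the same 47.1%, 56.4% and 36.9%). None was called for treatment or time with the experiment term. The chemokine Ccl5 had the widest range, with medians of 142.25, 7224.5 and 1050.3, a difference of 5.43 ± 0.09 for experiment 2 against 1 and 2.78 ± 0.09 for 3 against 1. Ms4a4c had the same order (2.53 and 1.13). Gbp6, as Gbp2, was highest in experiment 3 (1.45 in experiment 2 against 1 and 2.27 in 3 against 1), and so was Irgm2 (0.31 and 1.02). Dhx58, a sensor related to Ifih1, followed Oas3 (0.44 and -0.64), while Ifi27 was lower in experiment 2 than in 1 (-1.04) and Slfn5 lower in both (-1.17 and -0.84).

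Markers of some other cells also differed between the experiments, as did many genes of any kind. In experiment 2 against 1, 38.9% of all genes and 47.1% of the bright genes were called, and 47.3% and 56.4% in 3 against 1. The counts of markers below are to be read beside these shares. The summed signal of 6 granulocyte markers had medians of 7187.3, 12134 and 5878.1, most of it from S100a8 and S100a9. In experiment 2 against 1, 4 of the 6 were higher (S100a8 by 0.95, Ngp by 1.22, Camp by 0.76 and S100a9 by 0.52), Mpo was lower (-0.93) and Elane was not called (-0.71). In experiment 3 against 1, 1 of the 6 was higher and 2 lower. Among 8 macrophage markers, summed medians were 119380, 140640 and 130250, 3 were higher and 0 lower in experiment 2 than in 1, and 3 higher and 1 lower in experiment 3, with Adgre1 0.88 and 1.14 higher and Fcgr1 1.04 higher in experiment 2. The 6 markers of plasmacytoid dendritic cells, which make much interferon, summed to medians of 1685.8, 2658.3 and 2498.2, and 2 of the 4 tested were higher in both later experiments than in 1, but the defining marker Siglech reached the array median on 2 of 18 arrays. The 6 T and NK cell markers were dim, with summed medians of 134.6, 309.9 and 346.15, and Cd3g, Klrk1 and Ncr1 were below the array median on all 18. Cd8a, at or above it on 14, was higher in experiments 2 and 3 than in 1 (1.01 and 1.04), and Cd3e, at or above it on 5, was higher in experiment 3 (1.22). Of 5 stromal markers, with summed medians of 1880.5, 2479.3 and 2333.6, 3 were higher in experiment 2 than in 1 and 3 in experiment 3, among them Dcn (1.88 and 1.02), and Col1a1 in experiment 2 (0.69). Summed medians of 4 B cell markers were 270.15, 270.05 and 325.7, and of 5 dendritic cell markers 273.9, 284.4 and 287.4. Those of 3 erythroid markers were 98.25, 167.2 and 113.4. The B cell marker Cd79b, at or above the array median on 17 arrays, had medians of 159.25, 108.15 and 184. The part of all these markers in the member differences was not tested.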

How the data were processed

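Macrophage RNA from 3 independent experiments was hybridised to 18 single-colour arrays, 3 for each of 6 groups of treatment and time taken from the labels. The authors deposited 1 linear, scaled intensity per probe set and array, from GCOS 1.4 according to the submitters' processing notes. Its signal algorithm is not given in the sources used, and no detection calls were used. Of 45101 probe sets, 34958 had 1 gene symbol, 932 several and 9211 none in the platform annotation, which can be old; only those with 1 were named.

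Tests were run on log2(signal + 16), which understates the changes of dim probe sets, for 27062 probe sets that reached the array median on at least 3 arrays; 64 control probe sets were left out. In R 4.3.3, limma 3.58.1 (lmFit, and eBayes with its trend option) was run on the 18 arrays together, two-sided, with Benjamini-Hochberg adjustment over all probe sets and a threshold of 0.05. Treatment and time used group coefficients alone (12 residual degrees of freedom), and the comparisons of experiments used group plus experiment (10). The replicate number pairs the samples: the labels make it an independent experiment, and deviations from group means correlated at 0.201 to 0.643 in 45 same-number pairs and at -0.471 to 0.0652 in 90 others. On simulated data with 100 changed probe sets each, 75% of differences of 1 log2 unit and 92% of 2 were recovered for experiment 3 against 1, and 57% and 84% for LPS at 30 against 10 min. The simulated arrays for LPS held no difference between experiments, unlike the real ones, and were fitted without the experiment term. The 57% and 84% may therefore be too high for that fit on the real arrays.

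Members and lists were chosen with earlier results of these data known. Members were named in full if they were among the 10 largest calls in either direction between experiments, or the 3 largest differences of a treatment or time comparison. Other settings were quantile normalization, pseudocounts of 1 and 64, other filters, no trend, subsets of arrays and, chosen after seeing the data, the experiment term without the 2 arrays that stood apart. The number of arrays limits the precision.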

Additional observations from a re-analysis of the deposited data

Results flagged for a closer look

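For Dtx3l, the differences between experiments themselves differed between the times (adjusted p = 0.0263, limma, 1 of 36 members or 2.78%, where 3.75% of all genes and 5.07% of those at or above the array median on all arrays passed). At 20 min its signal in experiment 3 was 3888.3 under LPS and 3433.5 under LPS plus IL-10, and 2263.4 to 2595.8 at the other times, while experiments 1 and 2 showed no such rise (1791.3 and 2120.7 under LPS at 20 min). Dtx3l was chosen after its values were seen. The adjusted p was 0.0726 without the LPS 20 min arrays of experiments 2 and 3, and 0.253 without the intensity trend. At an unadjusted p under 0.05, 11 of 36 members (30.6%) passed this test, where 18.2% of all genes did.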

How the results depend on the processing

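The counts of members called between experiments fell on the LPS arrays alone, 3 an experiment and both arrays that stood apart among them: 13 in experiment 2 against 1, 8 in 3 against 1, 12 in 3 against 2 and 19 for any difference. These are 36.1%, 22.2%, 33.3% and 52.8% of members, beside 14.9%, 21.9%, 7.41% and 24.2% of all probe sets. In 3 against 1 the members were thus near the share of all probe sets. On the LPS plus IL-10 arrays alone, also 3 an experiment, the counts were 24, 17, 16 and 28. These are 66.7%, 47.2%, 44.4% and 77.8% of members, beside 20.0%, 30.1%, 12.8% and 33.5% of all probe sets. All probe sets include dim ones, while the members are bright and bright genes pass more easily. On all arrays with the filter at the 75th percentile, the shares of 35 members called were 65.7%, 65.7%, 68.6% and 88.6%, in the same order. Those of the 12874 probe sets tested there were 54.0%, 63.4%, 43.1% and 74.6%. The cause of the lower counts on the LPS arrays was not tested. Without the 10 min arrays 15 members were called in experiment 3 against 2 (41.7%, beside 14.1% of all probe sets). The count for experiment by time was 4 with the filter at the 75th percentile and 0 without the intensity trend. The shares of all probe sets for this test in those settings are not given here. In the settings run for each, the other counts stayed within 1.5 times the main count, and no called difference of a member between experiments reversed. Members without a call changed sign in some settings, at most 5 of 13, in experiment 3 against 2 on the LPS arrays alone. For treatment and time, 0 members were called in every setting, including leaving out each replicate in turn (0 to 0) and the fit with the replicate block, in which 0 of 36 members were called in each of the 12 comparisons. The block changed no member's call, and changed the calls of Irf1 and Stat2 given above. With quantile normalization the median difference of all probe sets moved by at most 0.043 log2 units.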
